A study of Arabidopsis thaliana with 24 samples.

Results

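The genes described here are 30 nuclear genes for photosynthetic electron transport in Arabidopsis thaliana, taken by gene identifier from 33557 genes in each of 6 deposited tables. The 12 genes of photosystem I were PSAD-1 (AT4G02770), PSAD-2 (AT1G03130), PSAE-1 (AT4G28750), PSAE-2 (AT2G20260), PSAF (AT1G31330), PSAG (AT1G55670), PSAH-1 (AT3G16140), PSAH-2 (AT1G52230), PSAK (AT1G30380), PSAL (AT4G12800), PSAN (AT5G64040) and PSAO (AT1G08380). The 9 genes of photosystem II were PSBO1 (AT5G66570), PSBO2 (AT3G50820), PSBP-1 (AT1G06680), PSBQ-1 (AT4G21280), PSBQ-2 (AT4G05180), PSBR (AT1G79040), PSBW (AT2G30570), PSBX (AT2G06520) and PSBY (AT1G67740). The 7 genes for electron carriers were the plastocyanin genes PETE1 (AT1G76100) and PETE2 (AT1G20340), the Rieske protein gene PETC (AT4G03280), the ferredoxin genes FD1 (AT1G10960) and FD2 (AT1G60950) and the ferredoxin-NADP reductase genes LFNR1 (AT5G66190) and LFNR2 (AT1G20020). The plastid ATP synthase was represented by 2 genes, ATPC1 (AT4G04640) and ATPD (AT4G09650). No expression value entered the rule that chose them, but the choice was made with earlier results of these data known. All 30 passed the authors' test filter in all 6 tables.

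In the thylakoid membrane, photosystem II splits water, the cytochrome b6f complex passes its electrons to plastocyanin, and photosystem I passes them on to ferredoxin, from which ferredoxin-NADP reductase makes NADPH. The core of both photosystems is encoded in the chloroplast, whereas the peripheral and soluble subunits described here are encoded in the nucleus and imported. Seedlings that germinate in the dark hold etioplasts without working photosystems, and PIF transcription factors, the dark-active bHLH proteins degraded after phytochrome is activated, are known to hold back photosynthesis genes there.

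Seedlings were compared by organ, light and genotype in 8 groups of 3 samples, 24 in all. Germination of every group was started by 3 h of white light and 5 min of far-red light (2 µmol per square metre and second), and 4 days of darkness followed. Light-treated wild type groups then received 1 h or 6 h of white light (70 µmol per square metre and second), and their cotyledons and hypocotyls were taken separately. Dark groups were taken without that light from the line labelled pifq, whose name stands for loss of PIF1, PIF3, PIF4 and PIF5, and from wild type, again as separate cotyledons and hypocotyls. The wild type is headed Col in the mutant tables, and the labels do not give the alleles of pifq. Every FPKM value below, a fragment count scaled for transcript length and library size, is the authors' single value for a group. The tables hold no values of single samples and no depth. The error given with each log2 fold is a standard error (SE) worked back from the authors' test statistic. The labels call the 3 samples biological repeats.

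In the dark, AS1, a regulator of lateral organs, had 209 FPKM in cotyledons and 22.9 in hypocotyls, whereas KNAT1, a gene of stems, had 6.42 and 81.0. Both belong to the list of 6 shoot meristem and leaf primordium markers read below. KNAT1 was the only gene of that list higher in hypocotyls. The meristem gene STM had 8.93 FPKM in dark cotyledons and 0.671 in dark hypocotyls, CLV3 had 1.33 and 0.0582, and ANT had 6.90 and 1.48. In pifq, PIF3 had 0.623 FPKM in mutant cotyledons and 64.7 in wild type cotyledons, and 2.16 FPKM in mutant hypocotyls and 37.6 in wild type hypocotyls. The transcripts of the other PIF genes were not at 0 in pifq: PIF1 had 30.5 FPKM in mutant cotyledons and 36.9 in wild type cotyledons, PIF4 had 45.0 and 15.4, and PIF5 had 13.8 and 15.8. In hypocotyls PIF1 had 55.4 FPKM in pifq and 35.4 in wild type, PIF4 had 44.9 and 19.3, and PIF5 had 8.66 and 21.5. The labels do not say where the other mutations lie, so the levels of these transcripts do not check the genotype. Cotyledons and hypocotyls stand in separate tables, and the relative scale of these tables is unknown.

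Sequences upstream of the members are shown for 4 genes on which the results below turn: PSBQ-2, with the largest rise in pifq hypocotyls, PSAH-2, whose share of its gene pair changed with light, and both ferredoxin genes, which parted in pifq. Each run covers 250 bases before to 50 bases after the RefSeq start in the TAIR10.1 assembly, in the direction of transcription; capitals mark CACGTG, the G-box core, and GATAAG, the I-box core, on either strand. PSBQ-2 is on the minus strand at chr4:2673194-2673493, PSAH-2 on the plus strand at chr1:19454548-19454847, FD1 on the plus strand at chr1:3663937-3664236 and FD2 on the plus strand at chr1:22444057-22444356.
PSBQ-2: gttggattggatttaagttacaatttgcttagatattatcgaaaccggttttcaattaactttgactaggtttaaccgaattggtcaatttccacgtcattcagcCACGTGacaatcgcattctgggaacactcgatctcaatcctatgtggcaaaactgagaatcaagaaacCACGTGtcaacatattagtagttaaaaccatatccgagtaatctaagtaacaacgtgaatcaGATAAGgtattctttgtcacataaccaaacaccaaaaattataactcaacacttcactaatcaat
PSAH-2: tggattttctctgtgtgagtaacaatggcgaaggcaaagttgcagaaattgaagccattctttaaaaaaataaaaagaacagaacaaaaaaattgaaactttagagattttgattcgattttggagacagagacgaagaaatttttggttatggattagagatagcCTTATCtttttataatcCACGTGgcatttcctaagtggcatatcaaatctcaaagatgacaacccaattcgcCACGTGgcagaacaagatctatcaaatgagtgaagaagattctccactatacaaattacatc
FD1: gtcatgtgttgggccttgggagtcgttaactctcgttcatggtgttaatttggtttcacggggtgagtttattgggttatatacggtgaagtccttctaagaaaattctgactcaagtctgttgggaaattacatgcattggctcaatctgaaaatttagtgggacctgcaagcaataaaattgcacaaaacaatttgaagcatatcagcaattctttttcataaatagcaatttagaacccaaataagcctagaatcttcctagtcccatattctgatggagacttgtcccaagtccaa
FD2: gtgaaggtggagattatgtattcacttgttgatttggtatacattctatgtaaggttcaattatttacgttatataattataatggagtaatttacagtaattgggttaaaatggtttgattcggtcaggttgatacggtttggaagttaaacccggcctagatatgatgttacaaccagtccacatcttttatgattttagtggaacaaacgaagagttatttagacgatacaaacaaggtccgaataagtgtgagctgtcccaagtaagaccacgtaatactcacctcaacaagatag

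PSBQ-2 held CACGTG 145 and 77 bases before its start and GATAAG 15 bases before it. PSAH-2 held CACGTG 67 and 12 bases before its start and GATAAG 84 bases before it. Neither motif occurred in these 300 bases of FD1 or FD2. These 4 genes were picked by their expression, and how motifs and folds go together was not tested. PSAG, with a log2 fold of 5.21 in pifq hypocotyls, held neither motif, whereas PSBQ-2, with 5.56, held both. Across all members CACGTG was found in 11 of 30 promoters, or 36.7%, against 7.68% of 27438 promoters of nuclear protein-coding genes. GATAAG was found in 16 of 30, or 53.3%, against 14.7% of all promoters. By complex, CACGTG was held by 4 of 12 photosystem I genes, 6 of 9 photosystem II genes, 0 of 7 electron transport genes and 1 of 2 ATP synthase genes, and GATAAG by 8 of 12, 3 of 9, 4 of 7 and 1 of 2. Both motifs stood in 4 members and neither in 7. GGTTAA was in 6 members (20%, against 16.7% of all promoters) and AGATTCT in 6 (20%, against 7.59%). Both strands were searched, no matches of different motifs overlapped in the members, and a match is a description of the sequence and not of binding. Of the members with CACGTG, 6 held it after the start, within the transcribed bases of the window, as did 9 of those with GATAAG.

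Before light, the members spanned a wide range of levels, and PSBR and FD2 were the 2 highest in both organs. In dark cotyledons the highest were PSBR, for a small lumenal protein of photosystem II, with 6008 FPKM, FD2, for the main leaf ferredoxin, with 3637 FPKM, and PSBX, for a small membrane subunit of photosystem II, with 3001 FPKM. The lowest were LFNR1 with 205 FPKM and LFNR2 with 108 FPKM. In dark hypocotyls FD2 led with 137 FPKM, followed by PSBR with 86.4 FPKM, PSBO1, for the main manganese-stabilising protein, with 62.6 FPKM and FD1 with 59.7 FPKM. The lowest were PSBQ-2 with 5.53 FPKM, LFNR2 with 4.90 FPKM and PSBO2 with 3.46 FPKM. The median member had 1352 FPKM in dark cotyledons and 24.2 FPKM in dark hypocotyls.

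Dark cotyledons held more of every member than dark hypocotyls, by 15.6 times (LFNR1) to 116 times (PSBQ-2), with a median of 48.8 times. Over 10340 genes with more than 5 FPKM in both organs the median ratio was 0.90, and 5.79% of them were over 5 times higher in cotyledons. The members' median ratio was 17.7 after 1 h, 16.0 after 6 h and 4.64 in pifq. In whole organs, fewer cells that express a gene and less RNA per cell cannot be told apart.

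**Figure D1:**
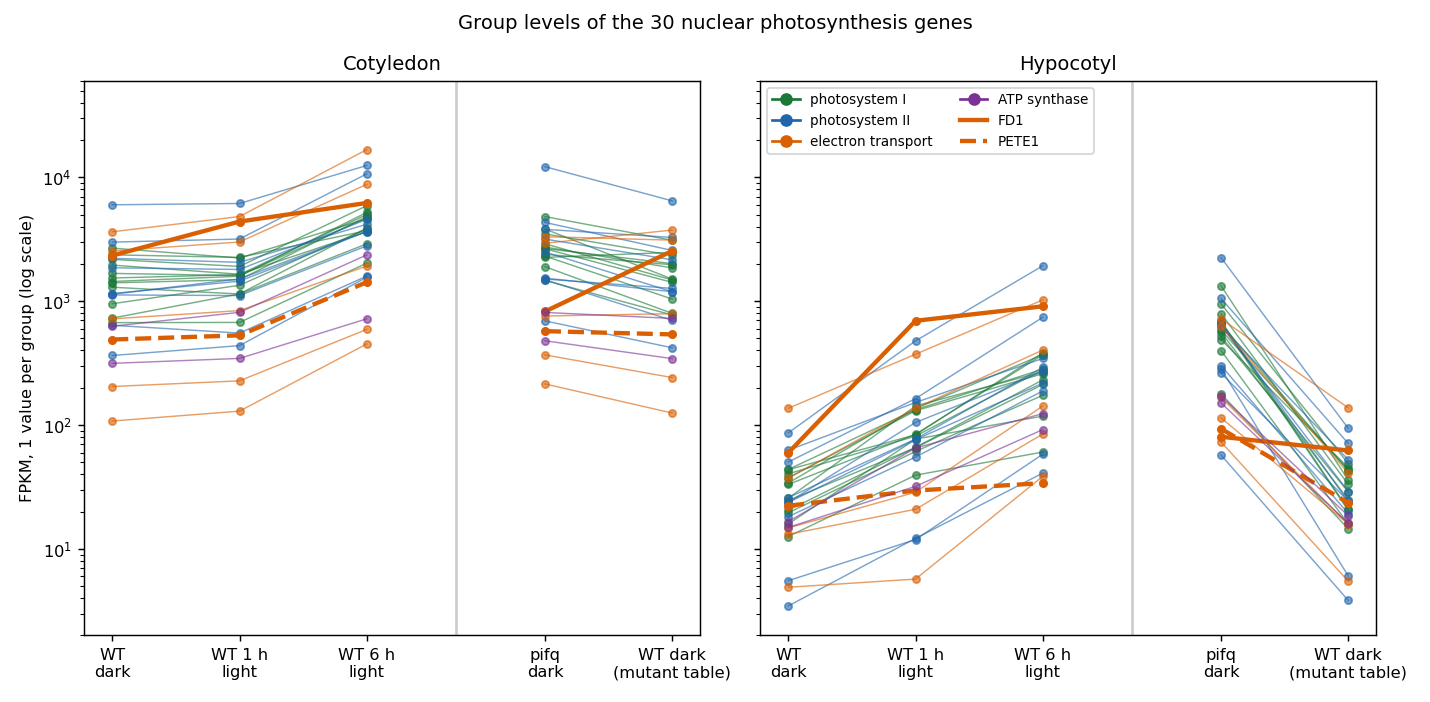
FPKM of each of the 30 members (lines) on a log scale in cotyledons (left) and hypocotyls (right), over dark, 1 h and 6 h of light in wild type and, right of the grey line, in pifq and the wild type column of the mutant table; colours give the complex, thick lines FD1 and PETE1. Cotyledon levels start at 108 to 6008 FPKM and hypocotyl levels at 3.46 to 137 FPKM, and FD1 has 826 FPKM in pifq cotyledons against 2547 FPKM in wild type cotyledons.

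After 1 h of light, cotyledons showed little movement of the members. Genes count as called, higher or lower, at a q under 0.05 in the authors' deposited tables. PSAN, for a lumenal photosystem I subunit at the plastocyanin docking side, had 1146 FPKM after 1 h and 730 in the dark, and FD1 had 4398 FPKM after 1 h and 2337 in the dark. These 2 of 30 members rose and 0 fell, against 10.6% of all tested genes called higher and 8.45% called lower. Their log2 folds were 0.65 (SE 0.41) and 0.91 (SE 0.48), with q = 0.0232 and q = 0.00648 in the authors' deposited table. The members' median log2 fold was 0.10 and that of all tested genes 0.03, and 10 of 30 members had a fold below 0. Both calls were lost with a normal p from the authors' statistic (adjusted p 0.673 for PSAN and 0.454 for FD1).

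Members not called at 1 h in cotyledons lay between -0.27 and 0.49 on the log2 scale. The lowest was PSAG, for a photosystem I subunit that binds antenna proteins, with 2232 FPKM after 1 h and 2684 in the dark. The highest was PSAH-2, for a subunit at the docking site of the mobile antenna, with 1344 FPKM after 1 h and 954 in the dark. The 2 ATP synthase genes had 345 FPKM after 1 h and 315 in the dark (ATPC1, the regulatory gamma subunit) and 813 and 628 FPKM (ATPD, the delta subunit).

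After 6 h of light all 30 members rose in cotyledons and 0 fell, against 24% of all tested genes called higher and 19.8% called lower. Their median log2 fold was 1.54, against 0.03 over all tested genes, and the range was 0.65 to 2.41. The members together had 134793 FPKM after 6 h and 47398 FPKM in the dark. With a normal p from the authors' statistic the count was 23 of 30, against 12.5% of all tested genes called higher and 9.04% called lower. The members not called were then PSAE-2, PSAG, PSAH-1, PSAL, PSBO1, PSBP-1 and PSBR.

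Among photosystem I genes in cotyledons, PSAN rose the most, with 3894 FPKM after 6 h and 730 in the dark, a log2 fold of 2.41 (SE 0.48). PSAH-2 had 3849 and 954 FPKM, a fold of 2.01 (SE 0.45), whereas its copy PSAH-1 had 3710 and 2369 FPKM, the smallest fold of all members at 0.65 (SE 0.48, q = 0.0450 in the authors' deposited table). The copies thus stood apart in fold though their levels after 6 h were close. PSAF, for the subunit that binds plastocyanin, had 4838 and 1407 FPKM, and PSAO, for a small membrane subunit, had 5218 and 1442 FPKM. PSAD-1 and PSAD-2, for the stromal ferredoxin docking subunit, had 4700 FPKM after 6 h against 1677 in the dark and 2031 against 671. PSAK, for an antenna-linked subunit, had 5017 against 1539 FPKM, and PSAL, for the subunit next to PSAH, had 2906 against 1298 FPKM. PSAE-1, for another stromal subunit, had 5909 against 2177 FPKM, and its copy PSAE-2 3636 against 1958 FPKM. After 6 h the 12 photosystem I genes lay between 2031 FPKM (PSAD-2) and 5909 FPKM (PSAE-1).

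Among photosystem II genes in cotyledons, PSBO2 rose the most, with 1561 FPKM after 6 h and 364 in the dark, a log2 fold of 2.10 (SE 0.45). Its copy PSBO1 had 4187 and 2220 FPKM, a fold of 0.92 (SE 0.59). PSBX reached 10683 FPKM against 3001 in the dark, and PSBR had 12476 against 6008 FPKM with a fold of 1.05 (SE 0.63). The oxygen-evolving subunit genes PSBP-1, PSBQ-1 and PSBQ-2 had folds of 1.30 (SE 0.57), 1.32 (SE 0.48) and 1.32 (SE 0.45). The small membrane subunit genes PSBW and PSBY had 3679 against 1136 FPKM and 3647 against 1154 FPKM, so that folds of all 9 genes lay between 0.92 and 2.10.

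Among electron carriers in cotyledons, FD2 had 16760 FPKM after 6 h and 3637 in the dark, a log2 fold of 2.20 (SE 0.62) and the highest level of any member in any group. LFNR2 followed with 452 against 108 FPKM, a fold of 2.07 (SE 0.39), and LFNR1 had 592 against 205 FPKM. PETE2, for the main plastocyanin, had 8789 against 2544 FPKM and PETE1, for the minor one, 1425 against 491 FPKM. PETC, for the Rieske iron-sulphur protein of the cytochrome b6f complex, had 1922 against 720 FPKM. FD1 stood at 6217 FPKM after 6 h, a fold of 1.41 (SE 0.48). ATPD had 2367 against 628 FPKM and ATPC1 721 against 315 FPKM.

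Some markers of other tissues moved in cotyledons over the same time. The 4 stomatal lineage markers (SPCH, MUTE, FAMA and EPF2) summed to 17.2 FPKM in the dark, 26.4 FPKM after 1 h and 60.8 FPKM after 6 h, and 1 of 4 rose at 1 h and 3 of 4 at 6 h. The 6 shoot meristem and leaf primordium markers (STM, KNAT1, WUS, CLV3, AS1 and ANT) summed to 233, 130 and 137 FPKM, with 1 of 5 tested lower at 1 h and 2 of 5 at 6 h. AS1 alone had 209, 108 and 116 FPKM of these sums. The shares of all tested genes called higher and lower were 10.6% and 8.45% at 1 h. At 6 h these shares were 24% and 19.8%. The 3 root markers (IRT1, PHT1;1 and PHT1;4) summed to 3.16, 2.57 and 3.27 FPKM. Only 1 of them, PHT1;4, was tested, and it was not called at either time. Their part in the members' change was not tested.

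In hypocotyls 28 of 30 members rose within 1 h and 0 fell, against 10% of all tested genes called higher and 5.14% called lower. The members' median log2 fold was 1.62, against 0.04 over all tested genes. FD1 stood above all others with 695 FPKM after 1 h and 59.7 in the dark, a log2 fold of 3.54 (SE 0.39). The members not called were PETE1, with 29.6 FPKM after 1 h and 22.3 in the dark, a fold of 0.41 (SE 0.41), and LFNR2, with 5.70 and 4.90 FPKM, a fold of 0.22 (SE 0.45). With a normal p from the authors' statistic 22 of 30 were called higher, against 3.83% of all tested genes called higher and 1% called lower. LFNR1, PETC, ATPC1, PSAN, PSAE-2 and PSBQ-2 were then not called in addition.

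After FD1, the largest hypocotyl rises at 1 h were those of PSAK, with 142 FPKM after 1 h and 25.7 in the dark (log2 fold 2.47, SE 0.38), PSBR, with 479 and 86.4 FPKM (2.47, SE 0.39), and PSAH-2, with 77.0 and 15.9 FPKM (2.28, SE 0.44). PSBW had 105 and 23.7 FPKM, and PSAO 136 and 34.0 FPKM. All 12 photosystem I genes rose by 0.94 (PSAE-2) to 2.47, and all 9 photosystem II genes by 1.10 (PSBQ-2) to 2.47. ATPD had 65.2 and 16.6 FPKM and ATPC1 32.0 and 14.9 FPKM. Among the carriers called, PETE2 had 137 and 37.2 FPKM, FD2 373 and 137 FPKM, PETC 28.7 and 14.8 FPKM and LFNR1 20.9 and 13.1 FPKM, so this group held both the largest and the smallest folds.

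After 6 h in hypocotyls all 30 members rose and 0 fell, against 17.3% of all tested genes called higher and 22% called lower. The median member had a log2 fold of 3.18, against -0.13 over all tested genes, and relative to that median gene the value was 3.31. The 6 h and 1 h comparisons share the dark samples. PSBR rose the most, with 1934 FPKM after 6 h and 86.4 in the dark, a log2 fold of 4.48 (SE 0.43). FD1 had 909 and 59.7 FPKM, a fold of 3.93 (SE 0.38), and PSBX had 742 and 50.3 FPKM, a fold of 3.88 (SE 0.40).

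The exception at 6 h was PETE1, with 33.9 FPKM after 6 h and 22.3 in the dark, a log2 fold of 0.61 (SE 0.42, q = 0.0444 in the authors' deposited table). With a normal p from the authors' statistic PETE1 was not called (adjusted p 0.359). The other 29 members were, against 9.61% of all tested genes called higher and 9.89% called lower. The next smallest folds were 2.27 (SE 0.40) for PSAD-2, with 60.5 and 12.6 FPKM, and 2.46 (SE 0.39) for PSBO1, with 345 and 62.6 FPKM. Photosystem I genes rose by 2.27 to 3.50, the largest being PSAE-1 with 232 and 20.5 FPKM and PSAG with 369 and 33.1 FPKM. Photosystem II genes rose by 2.46 to 4.48, among them PSBP-1 with 293 and 25.9 FPKM, PSBQ-1 with 189 and 18.2 FPKM, PSBO2 with 40.9 and 3.46 FPKM and PSBY with 218 and 23.7 FPKM. LFNR2, not called at 1 h, had 38.6 and 4.90 FPKM, a fold of 2.98 (SE 0.42). The other plastocyanin gene, PETE2, had 404 and 37.2 FPKM, a fold of 3.44 (SE 0.40).

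The same markers were read in hypocotyls. Over dark, 1 h and 6 h the stomatal list summed to 0.239, 1.07 and 0.360 FPKM, with no gene of it above 1 FPKM. Of its 4 genes 1 was tested at 1 h, where it was not called, and 0 were tested at 6 h. The meristem and leaf list summed to 106, 126 and 144 FPKM, of which KNAT1, not called, had 81.0, 88.5 and 105. AS1 of that list rose at both times. The shares of all tested genes called higher and lower were 10% and 5.14% at 1 h. At 6 h these shares were 17.3% and 22%. The root list summed to 5.16, 10.8 and 1.82 FPKM, where 2 of 3 rose at 1 h and 2 of 3 fell at 6 h. Their part in the members' change was not tested.

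**Figure D2:**
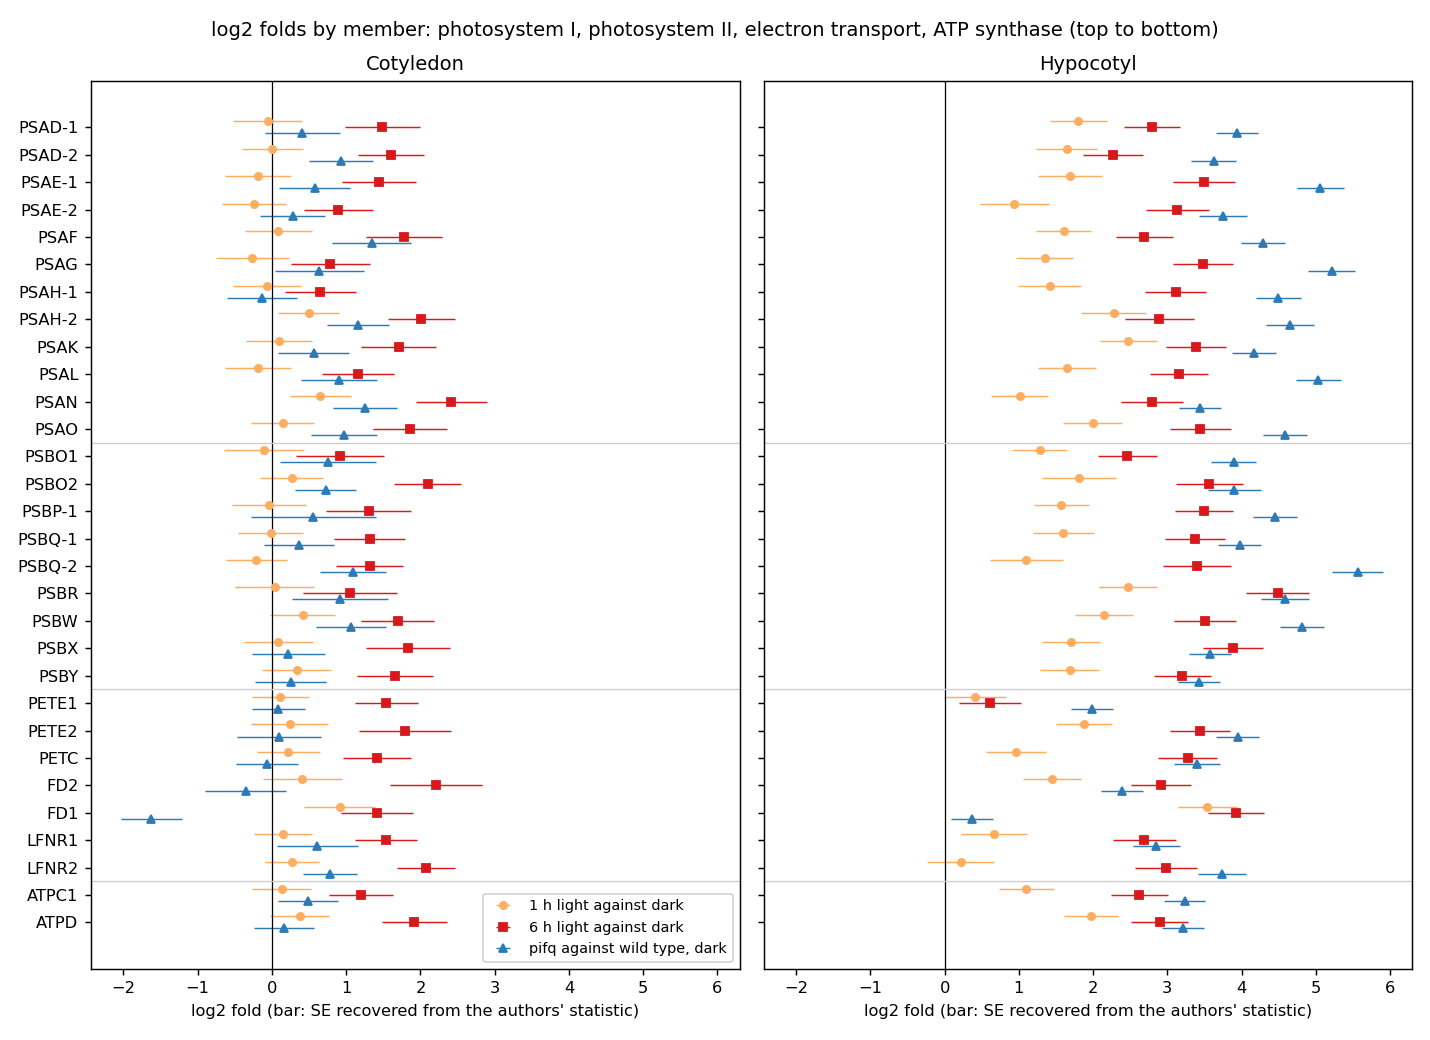
log2 folds (points) with the SE recovered from the authors' statistic (bars) for each member, by complex from top to bottom, in cotyledons (left) and hypocotyls (right), for 1 h light, 6 h light and pifq. In cotyledons the 6 h folds lie between 0.65 and 2.41 and FD1 is the member furthest below 0 in pifq, at -1.62; in hypocotyls FD1 has the largest 1 h fold, 3.54, and the smallest pifq fold, 0.37.

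The speed of the response was read as the FPKM gained by 1 h as a percentage of that gained by 6 h. In hypocotyls the median was 24.9%, and in cotyledons it was 3.43%. FD1 was the fastest member in both organs, with 74.7% of its 6 h gain present by 1 h in hypocotyls and 53.1% in cotyledons. In hypocotyls it was followed by PETE1 (62.6%, of a small gain), PSAH-2 (59.7%) and PSAD-2 (55.9%), whereas PETC (10.9%), LFNR1 (10.8%) and LFNR2 (2.39%) were the slowest. In cotyledons every other member had gained at most 14.9% by 1 h, the value of PSBW, and PSAG stood at -23.2%. These percentages carry no error of their own, since the 1 h and 6 h levels were not tested against each other.

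**Figure D3:**
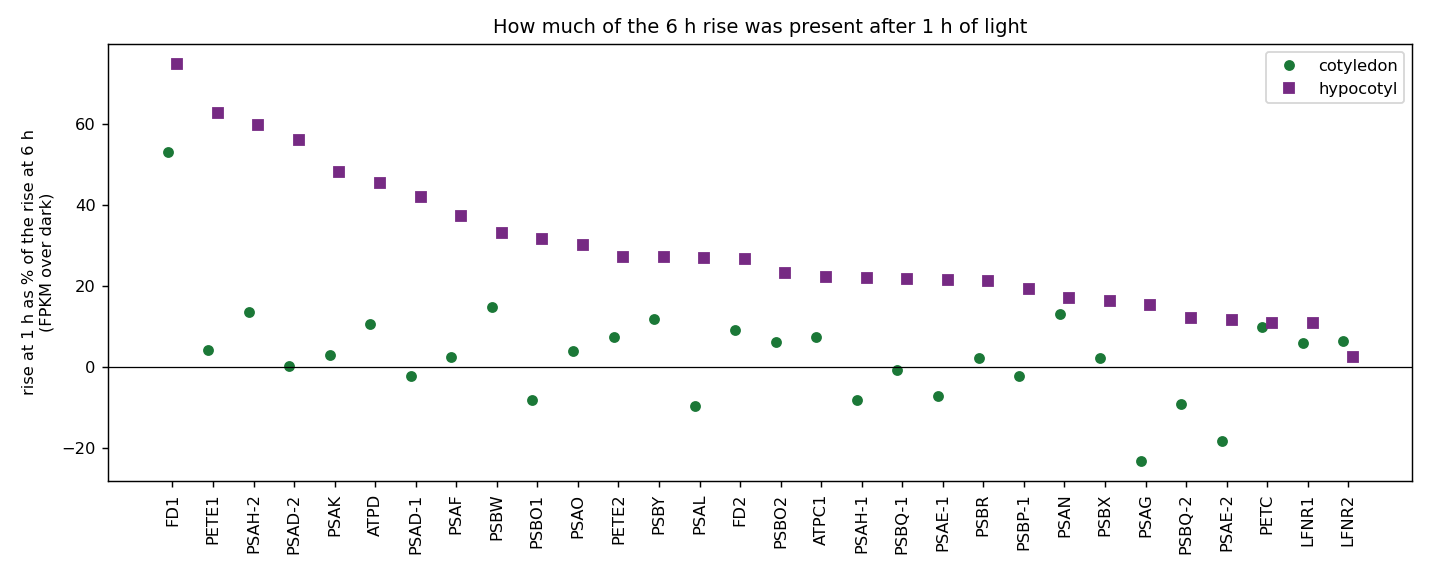
Gain in FPKM over dark at 1 h as a percentage of the gain at 6 h, one pair of symbols per member (circles cotyledon, squares hypocotyl), ordered by the hypocotyl value. FD1 has the highest value in both organs (53.1% in cotyledons and 74.7% in hypocotyls), and the hypocotyl median is 24.9% against 3.43% in cotyledons.

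In dark hypocotyls, pifq held more of nearly every member than wild type did. Here 29 of 30 members rose and 0 fell, against 13% of all tested genes called higher and 14.5% called lower. The median log2 fold was 3.92, against -0.03 over all tested genes. The members together had 16186 FPKM in pifq and 1034 FPKM in wild type hypocotyls. PSBQ-2 rose the most, with 285 FPKM in pifq and 6.03 in wild type, a log2 fold of 5.56 (SE 0.34).

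Photosystem I genes rose in pifq hypocotyls by 3.44 (PSAN, with 490 FPKM in pifq and 45.1 in wild type) to 5.21 (PSAG, with 1335 and 36.0 FPKM). PSAE-1 had 694 and 20.8 FPKM, a log2 fold of 5.06 (SE 0.32), and PSAL had 668 and 20.4 FPKM, a fold of 5.03 (SE 0.30). PSAH-2, PSAO, PSAH-1, PSAF, PSAK and PSAD-1 had folds of 4.66, 4.58, 4.50, 4.29, 4.17 and 3.94. Photosystem II genes rose by 3.43 (PSBY, with 262 and 24.3 FPKM) to the 5.56 of PSBQ-2. PSBW followed with 677 and 24.0 FPKM, a fold of 4.82 (SE 0.30), and PSBR had the highest level of the members in pifq hypocotyls, 2253 FPKM against 93.9 in wild type. ATPC1 and ATPD had folds of 3.23 (SE 0.28) and 3.21 (SE 0.28).

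The electron carrier genes had a median log2 fold of 2.85 in pifq hypocotyls, against 4.39 for photosystem I and 3.97 for photosystem II genes, and FD1 was the member not called. FD1 had 80.4 FPKM in pifq hypocotyls and 62.3 in wild type hypocotyls, a log2 fold of 0.37 (SE 0.28, q = 0.368 in the authors' deposited table). FD2 had 721 FPKM in pifq and 138 in wild type, a fold of 2.39 (SE 0.28), and PETE1 had 93.3 and 23.6 FPKM, a fold of 1.98 (SE 0.29). LFNR1, LFNR2, PETC and PETE2 had folds of 2.85 (SE 0.32), 3.74 (SE 0.33), 3.40 (SE 0.31) and 3.95 (SE 0.29).

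Some markers of other tissues moved with these rises. The shares of all tested genes called higher and lower in pifq hypocotyls were 13% and 14.5%. Of 4 stomatal lineage markers 2 were tested, SPCH and FAMA, and both rose, to 0.660 and 1.31 FPKM in pifq. The list summed to 2.46 FPKM in pifq hypocotyls and 0.256 FPKM in wild type hypocotyls, with MUTE at 0 in wild type. The same list summed to 40.5 FPKM in pifq cotyledons and 21.4 FPKM in wild type cotyledons. Of 6 shoot meristem and leaf primordium markers 5 were tested. STM and ANT rose, with 4.14 FPKM in pifq and 0.702 in wild type for STM, while AS1, KNAT1 and CLV3 were not called. The list summed to 150 FPKM in pifq and 127 FPKM in wild type hypocotyls, of which KNAT1 had 107 and 98.7. WUS was at 0 in wild type. In cotyledons that list summed to 98.2 FPKM in pifq and 277 FPKM in wild type. Of 3 root markers none was called in pifq hypocotyls, and their sum was 4.46 FPKM in pifq and 6.51 FPKM in wild type. The members themselves had 8.26% (PSBO2) to 34.0% (LFNR2) of their pifq cotyledon level in pifq hypocotyls, with a median of 21.6%, across tables of unknown relative scale. The part of such cells in the members' rise was not tested.

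In dark cotyledons few members passed the test in pifq. PSAN rose, with 1902 FPKM in pifq and 797 in wild type, a log2 fold of 1.25 (SE 0.43, q = 0.0369 in the authors' deposited table). FD1 fell, with 826 FPKM in pifq and 2547 in wild type, a log2 fold of -1.62 (SE 0.41, q = 0.00184 in the authors' deposited table). These were 1 higher and 1 lower of 30, against 4.79% of all tested genes called higher and 5.66% called lower. The members' median was 0.57, against -0.03 over all tested genes, and 4 members had a fold below 0. PSAN was no longer called at q under 0.01. In the same organ 1 of 4 stomatal markers rose, 3 of 5 tested meristem and leaf markers fell, and the root list summed to 9.07 FPKM in pifq and 3.00 FPKM in wild type, with PHT1;4 higher and IRT1 at 0 in both; their part in the members' values was not tested.

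Several further photosystem genes had folds near 1 in pifq cotyledons without passing the test. PSAF had 3831 FPKM in pifq and 1508 in wild type, a log2 fold of 1.34 (SE 0.53, q = 0.0897 in the authors' deposited table). PSAH-2 had 2315 and 1040 FPKM, a fold of 1.15 (SE 0.42, q = 0.0522 there), and it passed the test when only genes of at least 1 FPKM were adjusted for. PSBQ-2 had 1490 and 700 FPKM (1.09, SE 0.44), PSBW 2500 and 1192 FPKM (1.07, SE 0.47) and PSBR 12200 and 6462 FPKM (0.92, SE 0.65). The median fold was 0.77 for photosystem I, 0.72 for photosystem II, 0.09 for electron transport and 0.32 for ATP synthase genes. Below 0, besides FD1, stood FD2 with 2939 FPKM in pifq and 3755 in wild type, PSAH-1 with 2260 and 2481 FPKM and PETC with 760 and 793 FPKM.

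Set beside light, the pifq levels of hypocotyls were above those of wild type hypocotyls after 6 h of light for 27 of 30 members, with a median ratio of 1.91 and a maximum of 4.90 for PSBQ-2. FD1 stood at 0.0884 of its 6 h level there, FD2 at 0.704 and PSBX at 0.843. In cotyledons the pifq level was above the 6 h level for 2 of 30 members, PSAG and PSBO1, with a median ratio of 0.579, and FD1 stood at 0.133. These ratios cross tables and were not tested, and the share of all genes with a ratio above 1 was not counted. The wild type columns of the mutant tables were above the dark columns of the light tables by a median log2 of 0.13 over the members in cotyledons and 0.11 in hypocotyls. Over all genes with more than 5 FPKM in both columns these medians were 0.09 (SD 0.20) and 0.08 (SD 0.19). The labels do not link these columns to samples, and the pifq and light comparisons may rest on the same dark samples.

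The response was then compared between organs, as the cotyledon log2 fold minus the hypocotyl log2 fold, with a two-sided normal p adjusted by Benjamini-Hochberg over all genes tested in both tables. In pifq all 30 members had a smaller fold in cotyledons than in hypocotyls, against 6.97% of all tested genes with a smaller and 4.46% with a larger cotyledon fold. The differences ran from -1.90 (SE 0.46, adjusted p 0.000851) for PETE1 to -4.63 (SE 0.57, adjusted p 1.77e-13) for PSAH-1, with a median of -3.47 against -0.03 over all genes. FD1, with folds of -1.62 in cotyledons and 0.37 in hypocotyls, differed by -1.99 (SE 0.50, adjusted p 0.00153).

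At 6 h 13 of 30 members had a smaller fold in cotyledons and 0 a larger one, against 5.99% and 6.62% of all tested genes. The largest difference was that of PSBR, -3.43 (SE 0.76, adjusted p 0.000225), followed by PSAG, -2.69 (SE 0.67, adjusted p 0.00126), and FD1, -2.52 (SE 0.61, adjusted p 0.000975). PETE1 alone had a cotyledon fold above its hypocotyl fold, by 0.93 (SE 0.59, adjusted p 0.375), which did not pass the test. The count was 16 with each table centred on its median gene, where 7.52% of all tested genes had a smaller cotyledon fold. It was 4 with the SE taken from the authors' p-value, which cannot go below 5e-05 in the light tables. FD1 was then not called (adjusted p 0.0515). Under that SE 12.7% of all tested genes had a smaller cotyledon fold, so the 4 of 30 were near the background. At 1 h FD1, with -2.63 (SE 0.62, adjusted p 0.00912), and PSAK, with -2.38 (SE 0.59, adjusted p 0.0180), were the 2 of 30 members with a smaller cotyledon fold, against 0.321% of all tested genes with a smaller and 0.138% with a larger one. When the SE came from the authors' p-value, the 1 h count was 12 (1.27% of all tested genes) and FD1 was no longer among them (adjusted p 0.120). PSBR, with -2.44 (SE 0.66, adjusted p 0.0504), came next at 1 h. The members' median difference was -1.61 at 1 h and -1.62 at 6 h, against -0.03 and -0.00 over all genes.

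**Figure D4:**
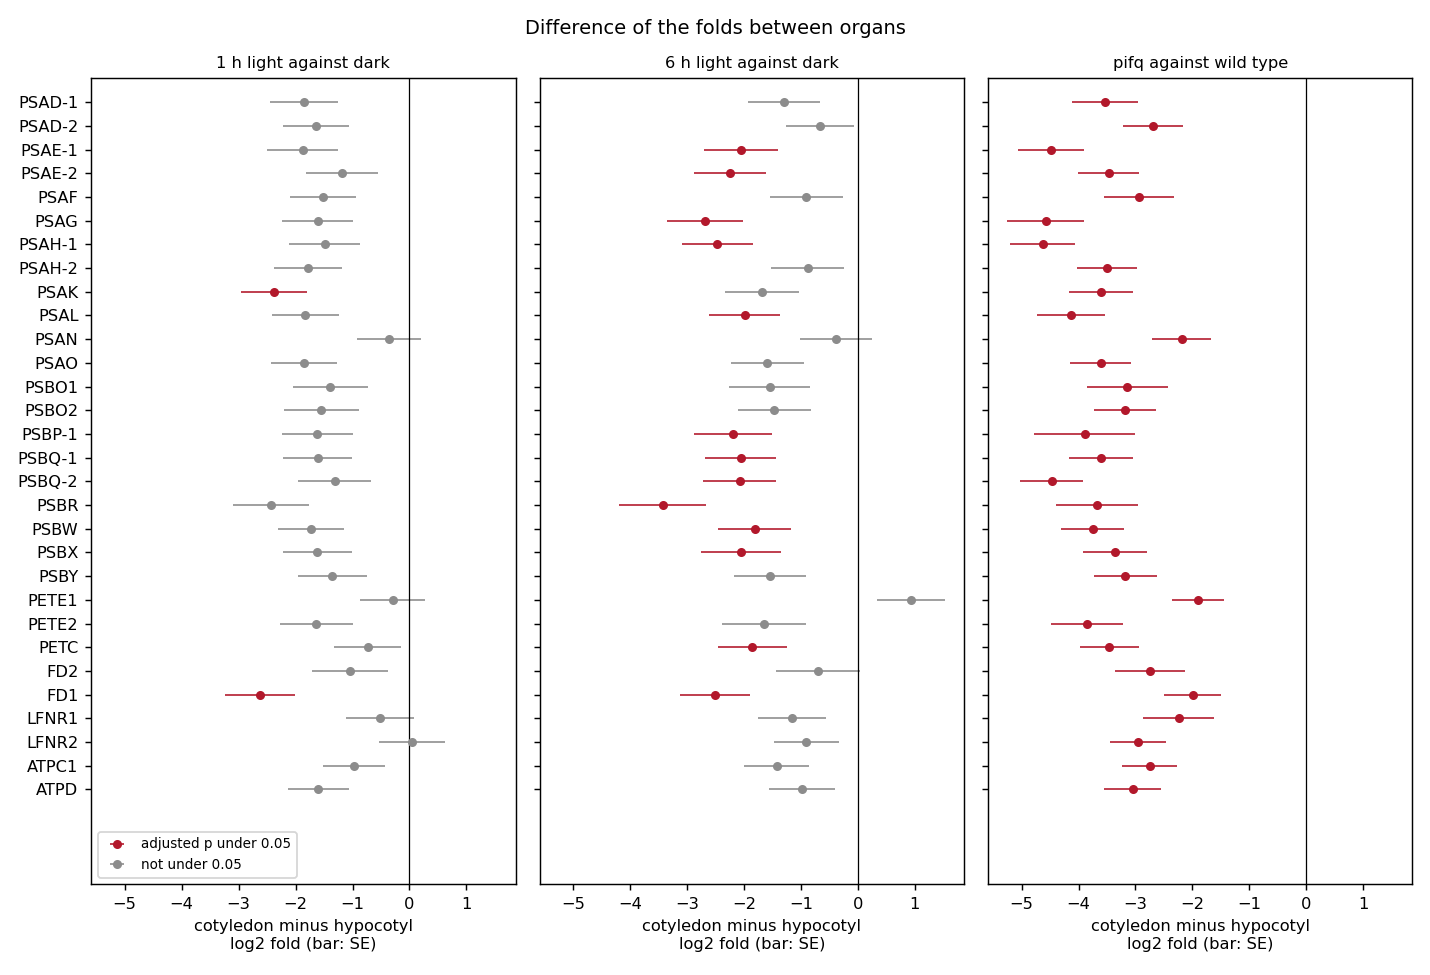
Cotyledon minus hypocotyl log2 fold (points) with its SE (bars) for the 30 members at 1 h light, 6 h light and in pifq; red marks an adjusted p under 0.05 over all tested genes. Red points number 2 at 1 h, 13 at 6 h and 30 in pifq, and PETE1 at 6 h is to the right of 0 at 0.93. The light and mutant tables relate statistic and p-value differently, so the light counts are not compared with the pifq count.

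The members include 8 pairs of closely related genes, which were compared with each other as a description. Their coding sequences were 75.0% (PETE1 and PETE2) to 88.0% (PSAD-1 and PSAD-2) identical, and the longest identical run in their transcripts was 17 to 35 bases. The treatment of reads that match both copies is not stated, so part of a copy's value may come from its partner. In 48 comparisons of fold (8 pairs, 3 contrasts and both organs), 9 differed by more than 2 SE, and 7 of these were in hypocotyls. The errors of both copies were taken as independent. For the same statistic the light tables give smaller p-values than the mutant tables, so 2 SE is not the same criterion in both.

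The balance of the ferredoxin pair in hypocotyls lay further towards FD1 after 1 h of light and further towards FD2 in pifq. FD1 (chr1:3664187-3665040) had 30.4% of the pair's FPKM in dark hypocotyls, 65.1% after 1 h and 47.0% after 6 h, but 10.0% in pifq hypocotyls against 31.2% in wild type hypocotyls. Its fold exceeded that of FD2 by 2.09 (SE 0.55) at 1 h and by 1.02 (SE 0.55), within 2 SE, at 6 h, and was below it by -2.02 (SE 0.40) in pifq. In cotyledons FD1 had 39.1%, 47.7% and 27.1% over dark, 1 h and 6 h, and 21.9% in pifq against 40.4% in wild type. The cotyledon fold difference in pifq was -1.27 (SE 0.69), within 2 SE.

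The plastocyanin pair parted in hypocotyls. PETE1 (chr1:28553883-28554930) had 37.4% of the pair in dark hypocotyls, 17.8% after 1 h and 7.76% after 6 h, and 12.9% in pifq against 36.6% in wild type hypocotyls. The fold of PETE1 was below that of PETE2 by -1.47 (SE 0.56) at 1 h, -2.83 (SE 0.58) at 6 h and -1.96 (SE 0.41) in pifq. In cotyledons PETE1 held 13.9% to 16.2% of the pair in all groups.

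In cotyledons the fold differences beyond 2 SE were those of the PSAH pair, by a small margin. PSAH-1 had 71.3% of the pair in the dark, 62.7% after 1 h and 49.1% after 6 h, and 49.4% in pifq against 70.5% in wild type. The fold differences were -1.37 (SE 0.66) at 6 h and -1.29 (SE 0.63) in pifq. In hypocotyls the same share was 60.7%, 46.0% and 64.3% over dark, 1 h and 6 h, and 58.5% in pifq against 61.1% in wild type. Other differences beyond 2 SE were seen in pifq hypocotyls, where PSAE-1 exceeded PSAE-2 by 1.31 (SE 0.45) and PSBQ-1 was below PSBQ-2 by -1.59 (SE 0.45). PSAE-1 had 54.3% of its pair in pifq hypocotyls and 32.4% in wild type hypocotyls. PSBQ-1 had 51.5% of its pair in pifq hypocotyls and 76.2% in wild type hypocotyls.

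The remaining pairs kept their order. PSBO1 had 85.9%, 82.5% and 72.8% of its pair in cotyledons over dark, 1 h and 6 h, and 94.8%, 92.6% and 89.4% in hypocotyls; the fold differences at 6 h were -1.18 (SE 0.74) and -1.10 (SE 0.60). PSAD-1 had between 64.4% and 81.1% of its pair in all groups, and LFNR1 between 56.7% and 78.5%. No fold difference of these 3 pairs went beyond 2 SE.

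**Figure D5:**
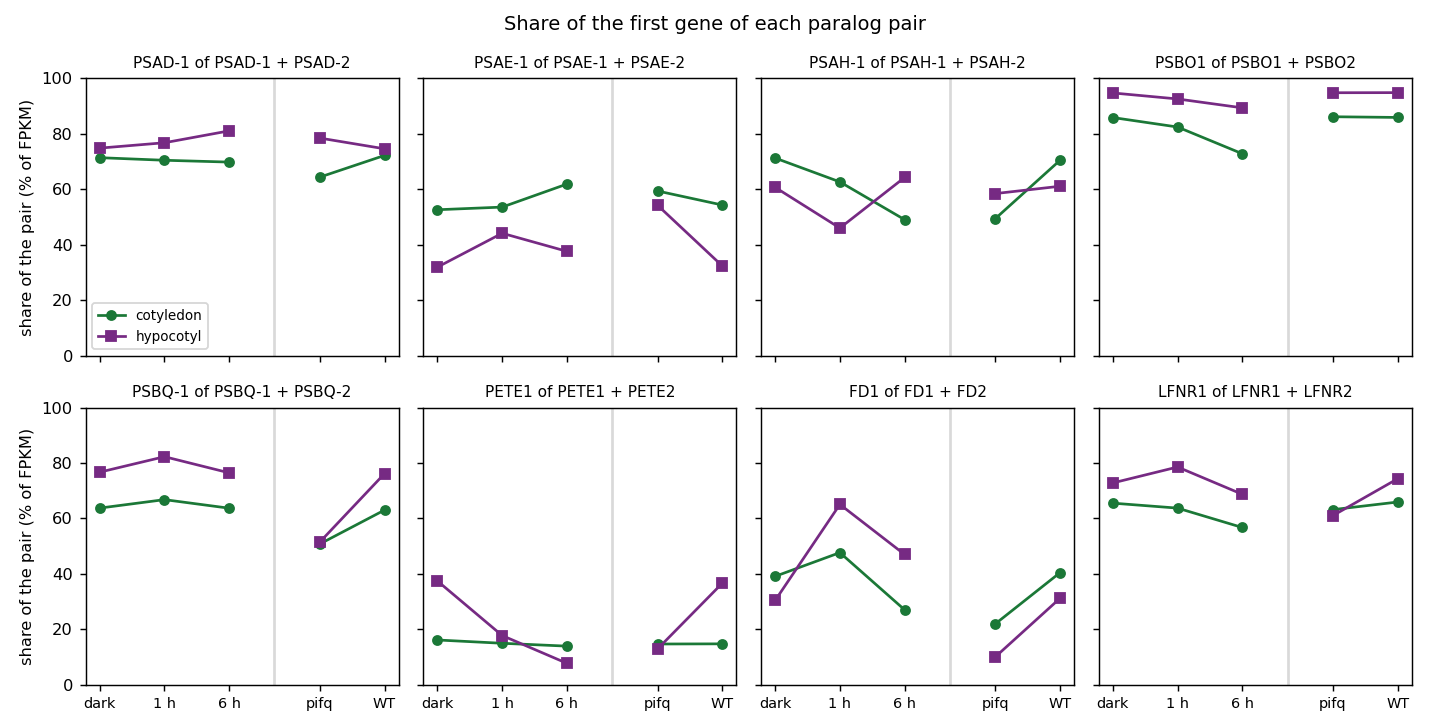
Share of the first gene in the summed FPKM of each of 8 gene pairs, in percent, over dark, 1 h and 6 h of light and, right of the grey line, in pifq and wild type (circles cotyledon, squares hypocotyl). The FD1 share in hypocotyls is 65.1% after 1 h and 10.0% in pifq, and the PETE1 share in hypocotyls is 7.76% after 6 h against 37.4% in the dark.

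In 4 members the deposited locus also carries another gene, and no source used here says whether reads were assigned by strand. In dark hypocotyls, where members are low, AT5G66180 had 9.93 FPKM beside LFNR1 with 13.1 FPKM, AT2G20270 had 9.89 FPKM beside PSAE-2 with 43.6 FPKM, AT1G79050 had 9.02 FPKM beside PSBR with 86.4 FPKM and AT3G16130 had 0.0280 FPKM beside PSAH-1 with 24.6 FPKM. After 6 h of light these neighbours had 4.96, 14.8, 11.7 and 0.0968 FPKM in hypocotyls.

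Genes of related lists gave a setting for the members. In cotyledons 10.6% of all tested genes were called higher and 8.45% lower at 1 h, and 24% and 19.8% at 6 h. In pifq cotyledons these shares were 4.79% and 5.66%. In hypocotyls they were 10% and 5.14% at 1 h, 17.3% and 22% at 6 h, and 13% and 14.5% in pifq. Of 16 other photosystem and thylakoid genes, 5 rose and 1 fell in cotyledons at 1 h, 9 rose and 0 fell at 6 h, and 2 rose and 1 fell in pifq. In hypocotyls 10 of 15 tested rose at 1 h, 13 of 16 at 6 h and 11 of 16 in pifq, and 0 fell. The list's median log2 fold in hypocotyls was 1.09, 2.34 and 2.11 in these 3 comparisons, and in cotyledons 0.04, 1.01 and -0.16. PSB28, for a photosystem II assembly protein, had 135 FPKM in pifq and 275 in wild type cotyledons, a log2 fold of -1.03 (SE 0.35), and in hypocotyls 107 FPKM after 6 h and 2.65 in the dark, the largest fold of the list at 5.34 (SE 0.57). PSBS, for the photoprotective protein of photosystem II, had 295 FPKM after 1 h and 16.2 in the dark in hypocotyls, a fold of 4.19 (SE 0.40). TROL, for a thylakoid anchor of ferredoxin-NADP reductase, had the list's largest fold in pifq hypocotyls, with 108 FPKM in pifq and 6.99 in wild type (3.95, SE 0.30), and TIC62, for another such anchor, rose in pifq cotyledons, with 98.6 and 48.0 FPKM.

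Of 14 nuclear genes of the chloroplast NDH complex, which feeds electrons from ferredoxin back to plastoquinone, 4 rose at 1 h and 10 at 6 h in cotyledons, where NDHO fell at 6 h, and 3 fell and 0 rose in pifq cotyledons. NDHM had the lowest value, with 55.2 FPKM in pifq and 140 in wild type cotyledons, a log2 fold of -1.34 (SE 0.31). In hypocotyls 2 of 13 tested rose at 1 h, 9 of 14 at 6 h and 4 of 14 in pifq, and 0 fell. The median log2 fold of the NDH genes was 1.27, 3.12 and 1.60 in hypocotyls and 0.28, 1.23 and -0.46 in cotyledons, at 1 h, 6 h and in pifq. The median SE of these genes in hypocotyls was 1.12, 0.98 and 0.94. NDH levels in dark hypocotyls ran from 0.0859 FPKM (NDHT) to 9.77 FPKM (NDHS), with a median of 0.694 FPKM. PNSB1 had the larger rise at 1 h, with 3.64 FPKM after 1 h and 0.591 in the dark. Of 9 assembly factors of the photosystems 1 rose at 1 h, 6 at 6 h and 0 in pifq in cotyledons, and 3, 8 and 6 in hypocotyls, and 0 fell. Their median log2 fold at 6 h was 0.75 in cotyledons and 1.89 in hypocotyls, and in pifq -0.21 and 1.64. LQY1, for a thylakoid protein in photosystem II repair, had 117 FPKM after 6 h and 4.17 in the dark in hypocotyls (4.82, SE 0.50).

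Of 6 ferredoxin and reductase genes of non-green plastids or of minor type, 5 were tested in each table. Counts over so few genes cannot be set apart from the shares of all tested genes given above. In cotyledons 1 rose at 1 h, 3 rose and 1 fell at 6 h, and 1 rose in pifq, with medians of 0.22, 0.85 and -0.07. In hypocotyls 1 rose at 1 h, 3 at 6 h, and 2 rose and 1 fell in pifq, with medians of 0.39, 0.90 and -0.29. FD3, for the root-type ferredoxin, had 111 FPKM in pifq and 201 in wild type hypocotyls, a log2 fold of -0.85 (SE 0.27), the lowest called value of the list, while the minor ferredoxin gene FDC1 had 35.8 and 8.31 FPKM, a fold of 2.11 (SE 0.38). In light, FD3 had 237 FPKM after 1 h and 226 after 6 h in hypocotyls, against 205 in the dark, and neither value was called. FD3 thus stood above both FD1 and FD2 in dark hypocotyls. RFNR2, for a root-type reductase, rose in pifq cotyledons, with 15.9 FPKM in pifq and 4.72 in wild type, a fold of 1.75 (SE 0.40).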

How the data were processed

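Total RNA of 24 samples in 8 groups was sequenced on an Illumina HiSeq instrument, per the labels' protocols. The submitters' processing notes name TopHat, Cufflinks and TAIR10; their versions, strand use and treatment of shared reads are not stated. As deposited by the authors, 6 tables of 33557 genes hold 1 FPKM value per group, a score (the test statistic), p-values and q-values; FPKM was read from the column layout, per the file headers and Cufflinks being named. The authors' log2 column and other text entries of the authors were not used; log2 folds were computed from the FPKM values. No table holds values per sample, so depth is unknown and no SD could be given.

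A gene was called at a deposited q under 0.05 with status OK. The SE is the absolute log2 fold over the absolute statistic. For the same statistic the light tables give smaller p-values than the mutant tables: the normal score of p over the statistic had a median of 1.71, 1.70, 1.70 and 1.68 in the light tables and 1 in the mutant tables, so calls are not compared between them. Dark columns of the 1 h and 6 h tables were identical. Promoters and positions were read from RefSeq annotation of TAIR10.1: 26687 genes matched by identifier, 0 lay outside the deposited locus and 41.1% shared a start or end with it; all 30 members matched. Motifs were counted as exact words. Pairs were aligned with Biopython 1.88; other work used Python 3.11.15, pandas 2.3.3, numpy 2.4.6, scipy 1.17.1 and matplotlib 3.10.9.

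The members, lists and tests were chosen with earlier results of these data known. All members are named; of the other lists, genes with the highest or lowest called fold per comparison. PSBS in hypocotyls at 1 h, TROL, LQY1, TIC62, FDC1 and RFNR2 were named by that rule, and further values of a gene already named were added after they were seen. Alternatives were a stricter threshold, a normal p from the statistic, adjustment per table, centring on the median gene, a filter at 1 FPKM, a pseudocount of 1 FPKM, the dark column of the light tables as denominator and the SE from the p-value.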

Additional observations from a re-analysis of the deposited data

Results flagged for a closer look

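The results picked out here are members whose response differed between organs by the test of the difference itself. That was the cotyledon log2 fold minus the hypocotyl log2 fold, at an adjusted p under 0.05 over all tested genes. In all, 45 of 90 differences met this, but light and mutant tables relate statistic and p-value differently, so their counts are not compared. After 1 h of light the members picked out were PSAK (-2.38) and FD1 (-2.63). After 6 h of light they were PSAE-1 (-2.06), PSAE-2 (-2.24), PSAG (-2.69), PSAH-1 (-2.47), PSAL (-1.99), PSBP-1 (-2.20), PSBQ-1 (-2.06), PSBQ-2 (-2.07), PSBR (-3.43), PSBW (-1.81), PSBX (-2.05), PETC (-1.86) and FD1 (-2.52). In pifq they were all 30 members, and their differences were as follows for the photosystems: PSAD-1 (-3.53), PSAD-2 (-2.70), PSAE-1 (-4.48), PSAE-2 (-3.47), PSAF (-2.94), PSAG (-4.58), PSAH-1 (-4.63), PSAH-2 (-3.50), PSAK (-3.61), PSAL (-4.13), PSAN (-2.19), PSAO (-3.61), PSBO1 (-3.14), PSBO2 (-3.18), PSBP-1 (-3.89), PSBQ-1 (-3.61), PSBQ-2 (-4.47), PSBR (-3.67), PSBW (-3.75), PSBX (-3.36), PSBY (-3.18). The electron carriers and ATP synthase genes had these differences in pifq: PETE1 (-1.90), PETE2 (-3.85), PETC (-3.46), FD2 (-2.74), FD1 (-1.99), LFNR1 (-2.24), LFNR2 (-2.96), ATPC1 (-2.75) and ATPD (-3.05). With the SE from the authors' p-value, FD1 was not called at 1 h (adjusted p 0.120) or at 6 h (adjusted p 0.0515). Under that SE PSAE-1, PSAL, PSBP-1, PSBQ-1, PSBQ-2, PSBW, PSBX and PETC were not called at 6 h either, while the 1 h count was 12.

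Cotyledon levels of the same genes were far above hypocotyl levels before treatment, with a median ratio of 48.8 in the dark. In pifq hypocotyls the stomatal markers SPCH and FAMA and the meristem and leaf markers STM and ANT rose. AS1, KNAT1 and CLV3 were not called there. The part of the cotyledon levels or of the markers in these differences was not tested.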

How the results depend on the processing

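No value that was called, as deposited or under an alternative, changed direction. Folds not called in either run were counted as the same even where centring changed their sign. PSAD-2 in cotyledons at 1 h, with a log2 fold of 0.006 before centring, was 1 such case. Of the values that answer a comparison, 88 alternatives gave the same outcome (counts within 1.5 times), and the others were as follows. The count of members higher in cotyledons at 1 h (2) was 0 with a normal p from the statistic. It was 0 with that p and centred folds (each table's median tested gene set to 0) and 1 at q under 0.01. These settings called 3.6%, 3.5% and 7.37% of all tested genes higher. The count higher in pifq cotyledons (1) was 2 with centred folds and the normal p, and 1 with the normal p alone. It was 2 among genes of at least 1 FPKM and 0 at q under 0.01. The shares of all tested genes called higher were 5.05%, 4.72%, 5.2% and 3.11%, in that order. The count with a smaller cotyledon fold at 1 h (2) was 12 with the SE from the p-value, met by 1.27% of all tested genes. It was 1 at an adjusted p under 0.01, met by 0.182% of them. That at 6 h (13) was 4 with the SE from the p-value, where 12.7% of all tested genes met it too, and 5 at an adjusted p under 0.01, met by 3.48% of all tested genes. Of the values of single members, 61 lost and 17 gained a call and 1182 kept theirs.

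Centring was run together with the normal p. In hypocotyls at 1 h it left 727 genes higher and 214 lower, against 759 and 199 with the normal p alone and 1987 and 1019 as deposited. At 6 h it left 2242 and 1640, against 1910 and 1965 with the normal p alone and 3440 and 4365 as deposited. The members' counts were then 22 and 29. Numbers of called genes fell by over 1.5 times with the normal p in each light table, for example to 684 higher and 354 lower in cotyledons at 1 h against 2023 and 1606.

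No paired analysis was possible because the tables hold 1 value per group, and leaving out single samples was not run for the same reason. Depth per sample is unknown, so nothing can be said of precision at low FPKM beyond the recovered SE, which rests on the authors' model.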
